A study of Mus musculus with 20 samples.

Results

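The comparison set primary osteosarcomas of mice carrying 1 p53 R245W allele (p53R245W/+, 3 tumours) against those of mice carrying 1 p53 R172H allele (p53R172H/+, 6 tumours), 9 of the 18 tumours and of the 20 libraries in the study. The columns of the deposited raw count table that bear these genotype names chose the 9 tumours, and no measured value was used in the choice. The other tumours came from 5 p53R270H/+ mice and 4 p53+/- mice, and the remaining libraries were cell line 14 under siRNA against p53 and its control. Every tumour was of mixed C57BL/6J and 129S/SvJae background, the share of each strain in each mouse not being given, and bulk RNA was taken from frozen, crushed tissue. All tumour-bearing mice had 1 altered and 1 normal Trp53 allele in their germ line. The labels give neither the age and sex of the mice nor the tumour site, nor whether a tumour kept its normal Trp53 allele. Titles carry the serial numbers 16, 18 and 20 in the R245W group and 23 to 28 in the R172H group, so anything that followed that order cannot be told apart from genotype.

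p53 is a transcription factor that halts the cell cycle or starts cell death after DNA damage, and osteosarcoma is one of the cancers in which it is most often disabled. Missense mutants of its DNA-binding domain fall into a class in which the domain is largely folded but contact with DNA is impaired, and a class in which the domain is structurally disturbed. R172H is the mouse form of a classic structural mutant, and R245W lies in the part of the domain that meets DNA. Comparing tumours of both genotypes addresses whether different missense alleles leave different expression patterns.

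Both groups expressed Alpl, a gene of bone-forming cells that was picked after its values were seen. Alpl, the alkaline phosphatase of mineralising osteoblasts, had 1158, 965 and 825 CPM (counts scaled to a common library size) in tumours R245W 1, 2 and 3, against a lowest, median and highest value of 857, 1389 and 1689 CPM in R172H tumours. CPM were scaled by library total and TMM factor; they compare a gene between tumours, not genes with each other, since they are not divided by length. Libraries held 21964474 to 23956389 counts in the R245W group and 20136957 to 28755806 counts in the R172H group. Tumour R245W 2 stood apart from the other 8: its score on the first principal component of these 9 tumours was 128, against 24.9 and 33.7 in R245W 1 and R245W 3 and between -48.5 and -3.01 in the R172H tumours. In bulk tissue fewer cells of a type and less RNA per cell cannot be told apart. The p-values of the gene tests set a difference against the spread between tumours. That spread was estimated from all 18 tumours, the R270H and p53+/- tumours included, and not from these 9 alone.

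Few genes passed the test between the genotypes. With 3 R245W tumours, a low number of calls does not show that the other genes were alike. Of 20616 genes tested with edgeR's quasi-likelihood test, 32 (0.155%) passed a Benjamini-Hochberg adjusted p of 0.05, of which 24 (0.116%) were higher and 8 (0.0388%) lower in R245W tumours. At an unadjusted p under 0.05 there were 2217 genes (10.8%). The 32 called genes comprised 10 of 15050 protein-coding genes (0.0664%), 17 of 1197 pseudogenes (1.42%), 4 of 2416 long noncoding RNAs (0.166%) and 1 of 1953 genes of other types (0.0512%). None of the 32 overlapped between the groups, and values without overlap were found for 1154 of all genes tested (5.6%), of which 589 (2.86%) were higher and 565 (2.74%) lower in R245W tumours. The count fell whenever an R245W or R172H tumour was left out. It was 14 without R245W 2, 14 without R172H 1, 14 without R172H 6, 15 without R172H 4 and 18 without R245W 1. Without any other tumour of these groups it was 21 to 25. It was 347 with DESeq2 and 119 with limma voom, and 30 of the 32 genes were called by each of them.

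The most constant difference concerned genes and their near-identical copies. Processed pseudogenes are copies of a messenger RNA written back into the genome, without introns and often without a promoter, and reads from a gene and such a copy can be hard to assign. Ndufs5 encodes an accessory subunit of respiratory complex I, and BC002163 is annotated as its processed pseudogene. Bases 1 to 300 of the Ndufs5 coding sequence (chromosome 4, GRCm38, GENCODE M21 transcript, sense strand) and the matching bases of BC002163 (chromosome 16) are shown because the counts of this pair moved to opposite sides; capitals mark the 2 bases that differ.
Ndufs5: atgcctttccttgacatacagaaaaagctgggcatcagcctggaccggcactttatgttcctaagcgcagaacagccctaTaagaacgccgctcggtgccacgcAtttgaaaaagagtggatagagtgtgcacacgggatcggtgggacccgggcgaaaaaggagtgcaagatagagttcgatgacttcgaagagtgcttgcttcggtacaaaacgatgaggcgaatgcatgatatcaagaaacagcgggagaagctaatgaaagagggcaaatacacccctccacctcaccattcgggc
BC002163: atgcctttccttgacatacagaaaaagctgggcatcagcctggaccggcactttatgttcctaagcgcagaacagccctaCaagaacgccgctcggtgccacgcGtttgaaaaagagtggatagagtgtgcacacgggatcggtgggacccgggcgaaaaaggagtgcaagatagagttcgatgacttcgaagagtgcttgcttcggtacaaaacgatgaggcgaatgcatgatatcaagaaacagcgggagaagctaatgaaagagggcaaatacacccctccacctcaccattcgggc

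Other such pairs were close in sequence too, and 3 of them are shown. Over their alignments Rpl3-ps1 differed from Rpl3 at 2 of 1210 bases, Gm9825 from Rnps1 at 5 of 843 and Atp6v0c-ps2 from Atp6v0c at 1 of 465, and the 319 aligned bases of BC002163 held only the 2 differences seen above. A stretch of 150 coding bases is given for each gene and its copy, with the differing bases in it in capitals, which are 1 for Rpl3, 2 for Rnps1 and 1 for Atp6v0c.
Rpl3: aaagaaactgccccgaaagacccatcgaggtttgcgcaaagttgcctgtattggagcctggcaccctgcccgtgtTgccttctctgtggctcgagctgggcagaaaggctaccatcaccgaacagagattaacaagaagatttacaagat
Rpl3-ps1: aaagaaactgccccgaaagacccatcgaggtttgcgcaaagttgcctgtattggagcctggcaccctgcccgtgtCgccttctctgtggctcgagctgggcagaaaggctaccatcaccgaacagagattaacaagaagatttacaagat
Rnps1: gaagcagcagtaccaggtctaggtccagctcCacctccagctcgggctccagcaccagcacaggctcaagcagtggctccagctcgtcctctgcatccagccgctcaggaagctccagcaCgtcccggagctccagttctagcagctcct
Gm9825: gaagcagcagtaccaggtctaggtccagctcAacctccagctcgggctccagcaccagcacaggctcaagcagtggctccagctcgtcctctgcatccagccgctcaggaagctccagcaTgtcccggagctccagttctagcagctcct
Atp6v0c: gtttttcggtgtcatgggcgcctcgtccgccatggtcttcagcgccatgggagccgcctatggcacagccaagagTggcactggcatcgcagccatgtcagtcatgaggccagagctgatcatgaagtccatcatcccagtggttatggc
Atp6v0c-ps2: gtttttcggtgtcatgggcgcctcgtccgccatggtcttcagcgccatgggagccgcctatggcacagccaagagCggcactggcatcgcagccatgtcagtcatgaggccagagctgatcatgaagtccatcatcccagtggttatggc
Rpl3 is a protein of the large ribosomal subunit (chromosome 15; copy on chromosome X), Rnps1 a splicing factor of the exon junction complex (chromosome 17; copy on chromosome 6) and Atp6v0c the proton-carrying ring subunit of the vacuolar ATPase (chromosome 17; copy on chromosome 6).

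Ndufs5 (ENSMUSG00000028648.13, chromosome 4: 123712710 to 123718202) fell 18.4-fold. It had 0.662, 1.04 and 1.64 CPM in the R245W tumours, against 17.6, 21.3 and 22.1 CPM as the lowest, median and highest in R172H tumours. All 3 R245W tumours lay far below every R172H tumour, and the log2 fold change was -4.20 ± 0.37 (SE, adjusted p = 1.21e-05, n = 3 and 6, edgeR). BC002163 (chromosome 16: 42955631 to 42955949) had 21.6, 21.9 and 18 CPM in R245W tumours, against 0.208, 0.364 and 0.775 CPM in R172H tumours as lowest, median and highest (log2 fold change 5.56 ± 1.06, adjusted p = 0.0435). Added together, the pair averaged 21.6 ± 1.73 CPM in R245W and 21.0 ± 1.65 CPM in R172H tumours (SD, n = 3 and 6). BC002163 took 91.7% to 97.0% of the pair's counts in R245W tumours and 0.933% to 4.23% in R172H tumours. With the counts of near-identical copies summed over the whole table, the log2 fold change of Ndufs5 was 0.05 ± 0.15 (adjusted p = 0.935; over the other settings tried the adjusted p went as low as 8.84e-33). The total assigned to Ndufs5 and its copy thus differed by less than the spread between tumours, and only its division between the 2 addresses differed.

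Other copies were higher in R245W tumours too, but their source genes did not all fall. For the source genes of copies named here, the log2 fold change was -0.44 (Cox7a2l), 0.08 (Rpl3), 0.68 (Rpl15) and 1.07 (Glo1). With copies summed it was 0.18, 0.64, 1.14 and 1.26, in the same order. Of the 17 called pseudogenes 16 were higher and 1 was lower in R245W tumours. A source gene with at least 95% identity over at least 80% of the copy's length was found for 14 of the 17, all 14 of them higher, and these trace to 12 source genes (identity 96.6% to 99.8%). Rpl3-ps1 (chromosome X: 13202571 to 13203780) had 70.8, 97.2 and 111 CPM in R245W tumours, against 0.344, 0.573 and 1.45 CPM in R172H tumours as lowest, median and highest (log2 fold change 6.98 ± 0.38, adjusted p = 1.71e-08). Gm6969, a copy of the respiratory chain assembly gene Cox7a2l, had 51.1, 50.03 and 78.03 CPM in R245W tumours, against 0 to 0.670 CPM in R172H tumours (7.18 ± 0.63, adjusted p = 1.21e-05). Gm10020, a copy of the ribosomal protein gene Rpl15, had 4.73, 10.3 and 8.36 CPM in R245W tumours, against 0 to 0.0893 CPM in R172H tumours (7.90 ± 0.78, adjusted p = 5.42e-05). Rpl15-ps2 had 11.0, 23.7 and 15.6 CPM in R245W tumours, against 2.06 to 3.83 CPM in R172H tumours (2.46 ± 0.28, adjusted p = 4.35e-04), and Gm13443, a copy of Glo1, had 4.77, 10.5 and 5 CPM in R245W tumours, against 0 to 0.140 CPM in R172H tumours. Each of these 5 copies was called in every fit that left out a tumour. Gm8420, another copy of Rpl15, had 167 counts over the 3 R245W tumours and 0 over the 6 R172H tumours, which makes it at least 122-fold higher against a floor of 3 counts over the R172H group. That floor covers counting error only.

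The summed values of gene and copy overlapped between the groups in 12 of the 14 pairs. Of all genes tested only 5.6% were without overlap, so overlap alone does not show that a total was unchanged. Rnps1 alone had 19.5, 42.3 and 27.5 CPM in R245W tumours, against 51.6 to 71.8 CPM in R172H tumours, and its copy Gm9825 took 51.6% to 56.3% of the pair in R245W tumours and at most 0.478% in R172H tumours. Their sum was 65.1 ± 28.8 CPM in R245W and 60.0 ± 7.68 CPM in R172H tumours. Atp6v0c alone had 9.58, 9.41 and 15 CPM in R245W tumours, against 24.2 to 40.1 CPM in R172H tumours, and the sum with Atp6v0c-ps2 was 26.9 ± 4.19 CPM in R245W and 30.3 ± 6.34 CPM in R172H tumours. Neither Rnps1 (log2 fold change -1.01 ± 0.27, adjusted p = 0.181) nor Atp6v0c (-1.41 ± 0.33, adjusted p = 0.137) passed the test alone. Gm9825 lost its call in 6 of the 9 fits that left out an R245W or R172H tumour, and Atp6v0c-ps2 and BC002163 in all 9 (adjusted p up to 0.134), with log2 fold changes that stayed between 5.41 and 8.48. Cox7a2l with Gm6969 summed to 170 ± 37.5 CPM in R245W and 150 ± 21.7 CPM in R172H tumours. Rpl3 with Rpl3-ps1 summed to 287 ± 126 CPM in R245W and 184 ± 32.4 CPM in R172H tumours.

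The exceptions were Glo1 with Gm13443, which did not overlap as a sum (53.8 ± 5.75 CPM in R245W and 22.5 ± 4.96 CPM in R172H tumours), and Gm11942 with Gm10073. In the table with copies summed, 16 of 20180 genes were called, 11 higher and 5 lower in R245W tumours, and 15 of them were among the 32 called before. Gm9077 and Gm12904 had no source gene under the rule, and Gm18862 had no match. How the reads were divided between a gene and its copy depends on the aligner and counter, and the counting settings are not given in the sources used here; sequence differences between the strains in the mixed background were not tested. A gene at a locus and a copy elsewhere are therefore reported as uncertain on their own.

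**Figure D1:**
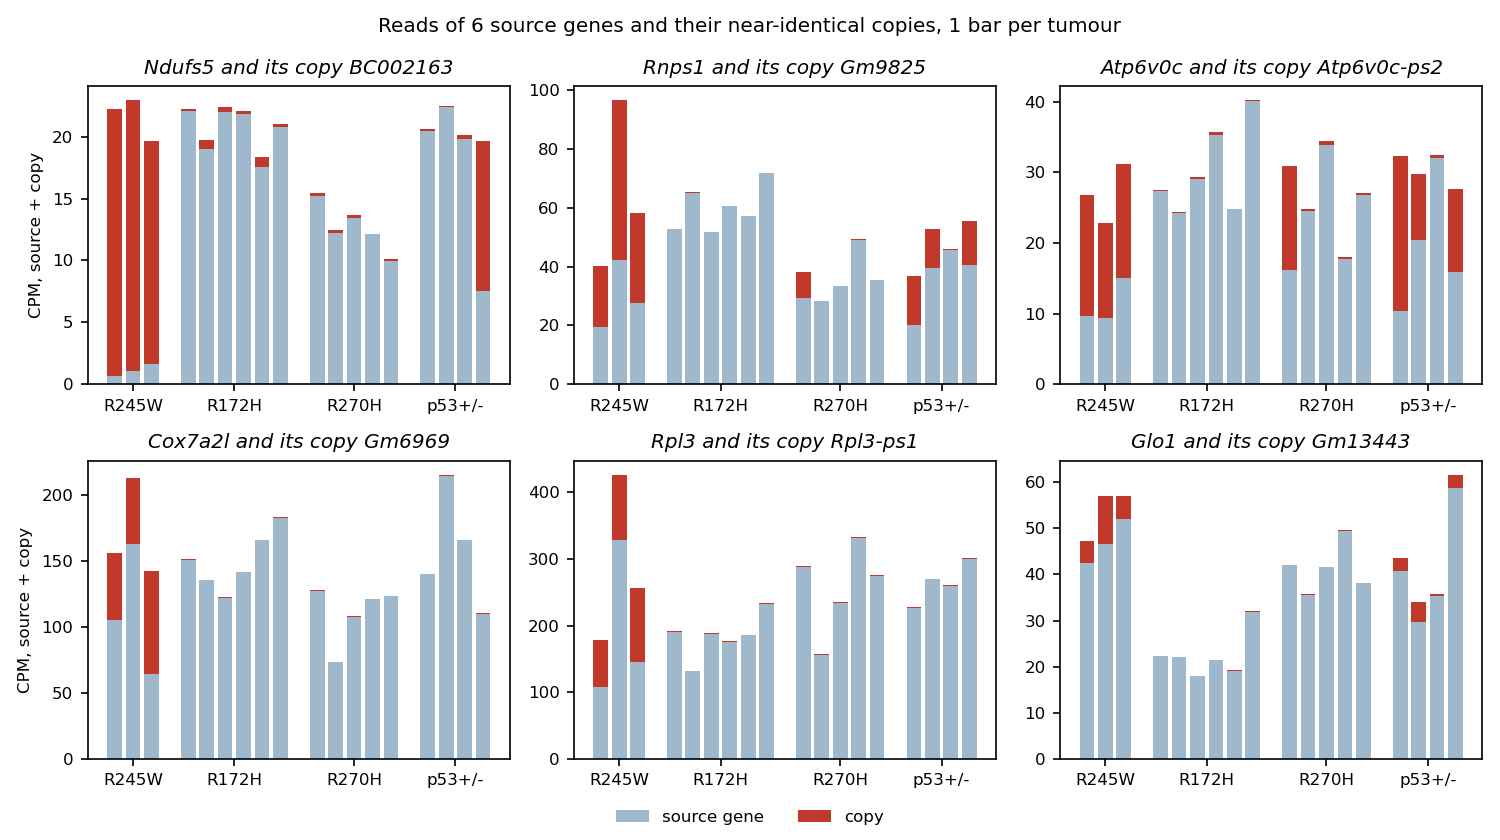
Counts of 6 source genes and their near-identical copies in each R245W, R172H, R270H and p53+/- tumour, stacked, in CPM on a linear axis starting at 0. In the R245W tumours the copy took 91.7% to 97.0% of the Ndufs5 pair, against 0.933% to 4.23% in R172H tumours, while the pair's height was alike in both groups (21.6 ± 1.73 and 21.0 ± 1.65 CPM).

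Of the protein-coding genes, 6 were called higher in R245W tumours. Glo1, the glyoxalase that detoxifies methylglyoxal, was 2.1-fold higher, Rpgrip1l, a protein of the ciliary transition zone, was 3.51-fold higher, and Sycp1, Prss41, Hmga1b and Lmo1 were below 1 CPM in every R172H tumour. Glo1 (chromosome 17: 30584936 to 30626871) had 42.4, 46.6 and 52.1 CPM in R245W tumours, against 17.9, 21.7 and 31.8 CPM in R172H tumours (log2 fold change 1.07 ± 0.20, adjusted p = 0.0435). With its copy added it was 1.26 ± 0.20 (adjusted p = 0.0273; range over all settings 6.49e-04 to 0.179). Glo1 lay past the R172H range in 8 of the 9 other tumours as well, at 35.6 to 49.4 CPM in R270H and 29.8 to 58.8 CPM in p53+/- tumours. Its call was lost in 8 of the 9 fits that left out an R245W or R172H tumour, the exception being R172H 6, with log2 fold changes of 0.99 to 1.19.

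Rpgrip1l (chromosome 8: 91217030 to 91313262) had 59.5, 132 and 66.3 CPM in R245W tumours, against 20.1, 24.6 and 30.01 CPM in R172H tumours (log2 fold change 1.81 ± 0.29, adjusted p = 0.0153). R270H tumours had 23.2 to 74.5 CPM and p53+/- tumours 29.4 to 54.5 CPM, and 7 of these 9 lay past the R172H range. None of the 23 other genes tested within 1 Mb was called, and their median log2 fold change was 0.73. Without R245W 2 the log2 fold change was 1.36 and the call was lost (adjusted p = 0.135), as it was without R172H 1 and without R172H 6 (range over all settings 2.22e-05 to 0.135).

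The other 4 were calls of low genes. Sycp1, a protein of the synaptonemal complex that joins chromosomes in meiosis (chromosome 3: 102818499 to 102936100), had 4.20, 0.141 and 3.61 CPM in R245W tumours and was at 0 in 5 of the 6 R172H tumours, with 0.0372 CPM in R172H 3. That is 186 counts in R245W and 1 count in R172H tumours, a ratio of 408 with a 95% counting interval of 72.3 to 16196. The interval pools the counts of each group, so it covers counting error only and not the spread between tumours. R245W 2 was close to 0, so the level rested on R245W 1 and R245W 3. Of the 9 other tumours 2 lay in the R245W range, p53+/- 2 and p53+/- 4, and 1 p53+/- tumour had 2.2 CPM. R270H 3 lay past the R172H range but short of the R245W tumours. The call (adjusted p = 0.0309) was lost in 8 of the 9 fits without an R245W or R172H tumour, the exception being R245W 2 (adjusted p up to 0.164).

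Prss41, a testis serine protease (chromosome 17: 23836785 to 23844172), had 0.662, 9.93 and 0.246 CPM in R245W tumours, against 0 to 0.0861 CPM in R172H tumours, and Lmo1, a LIM-only transcription cofactor that is an oncogene in T cell leukaemia and neuroblastoma (chromosome 7: 109138572 to 109175207), had 1.32, 30.1 and 0.943 CPM in R245W tumours, against 0.520, 0.606 and 0.848 CPM in R172H tumours. Both were high in R245W 2 alone. Without it the log2 fold change of Lmo1 was 0.81, against 4.05 ± 0.72 with it, and its call was lost (adjusted p = 0.731, against 0.0251), and that of Prss41 was 4.17, against 7.15 ± 1.27 (adjusted p = 0.468, against 0.0251). Over all settings the adjusted p of Lmo1 ranged from 0.00294 to 0.731 and that of Prss41 from 3.95e-04 to 0.468; Lmo1 lost its call in 7 and Prss41 in 6 of the 9 fits that left out a tumour.

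Hmga1b, an intron-poor relative of the chromatin protein gene Hmga1 (chromosome 11: 120762794 to 120764419), had 1.63, 7.58 and 3.90 CPM in R245W tumours, against 0.0893 to 0.298 CPM in R172H tumours (log2 fold change 4.69 ± 0.78, adjusted p = 0.0168). Hmga1 itself had 4.42, 16.7 and 7.46 CPM in R245W tumours, against 3.23 to 10.2 CPM in R172H tumours, which overlapped (0.39 ± 0.50, adjusted p = 0.823). The 2 genes share sequence and reads could be split between them, so Hmga1b is uncertain on its own. Without R245W 2 its log2 fold change was 4.03 and the call was lost (adjusted p = 0.101), as it was without R172H 1, R172H 4 or R172H 6 (range over all settings 9.60e-06 to 0.101).

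**Figure D2:**
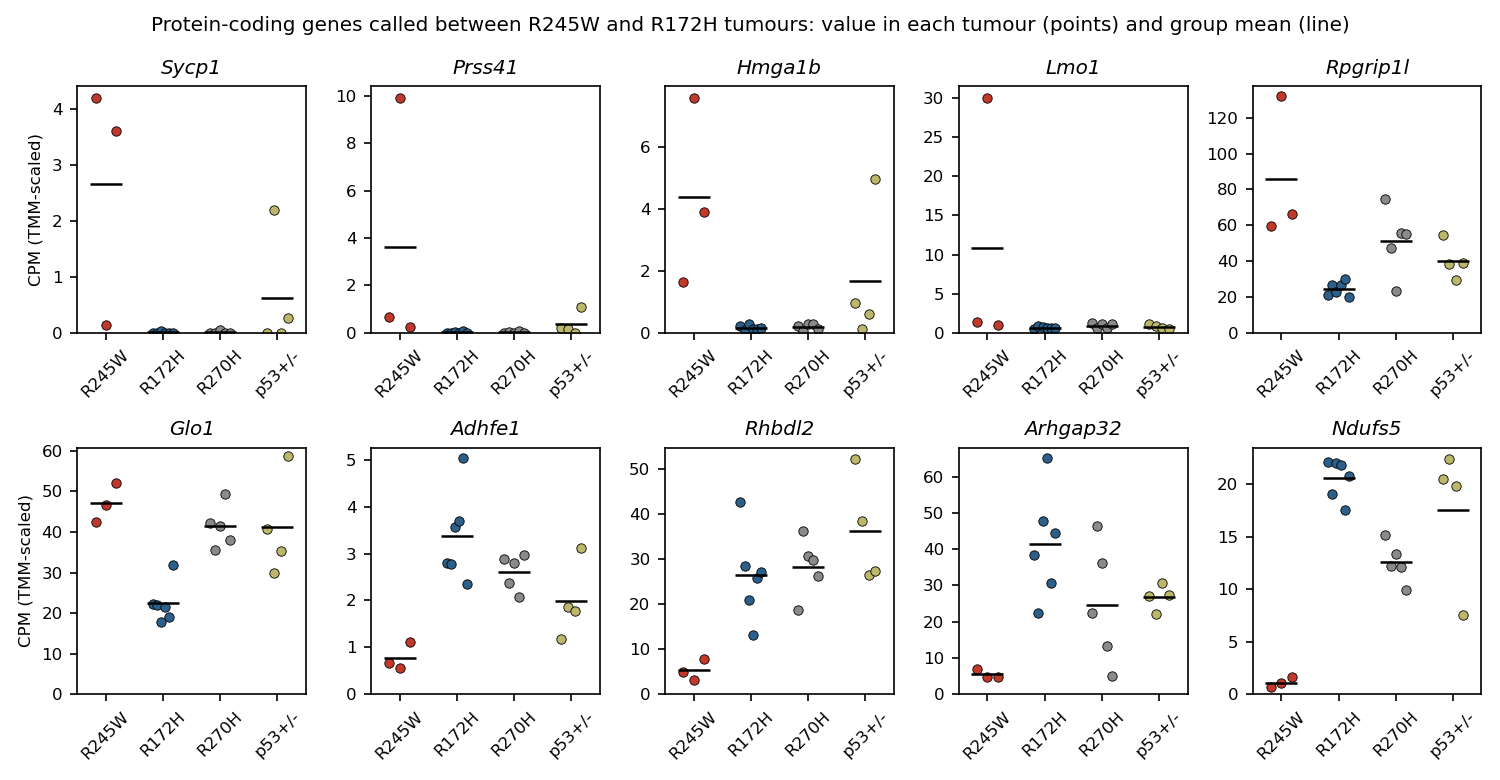
The 10 protein-coding genes called between R245W and R172H tumours, with 1 point per tumour in CPM on a linear axis starting at 0 and the group mean as a line, for R245W, R172H, R270H and p53+/- tumours. No R245W point overlaps the R172H points, Glo1 lies at 42.4 to 52.1 CPM in R245W against 17.9 to 31.8 CPM in R172H tumours, and Lmo1 and Prss41 have 1 high R245W tumour each.

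Of the 4 protein-coding genes called lower in R245W tumours, Ndufs5 is described above. Rhbdl2, a rhomboid protease of the plasma membrane (chromosome 4: 123787874 to 123829904), had 4.86, 3.20 and 7.83 CPM in R245W tumours, against 13.3, 26.5 and 42.6 CPM in R172H tumours, 4.97-fold lower (log2 fold change -2.31 ± 0.38, adjusted p = 0.0153). None of the 9 other tumours came below the R172H range: R270H tumours had 18.8 to 36.2 CPM and p53+/- tumours 26.4 to 52.3 CPM. The call was lost without R245W 1, without R245W 2 (log2 fold change -2.05, adjusted p = 0.101) and with only the 9 tumours fitted. Over all settings its adjusted p ranged from 1.48e-07 to 0.101.

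Arhgap32, a GTPase-activating protein (chromosome 9: 32116136 to 32268446), had 7.07, 4.85 and 4.76 CPM in R245W tumours, against 22.3, 41.5 and 65.0 CPM in R172H tumours, 7.46-fold lower (log2 fold change -2.90 ± 0.54, adjusted p = 0.037). R270H tumours ran from 4.96 to 46.2 CPM, so 1 of them was as low as the R245W group. The call was lost in 8 of the 9 fits without an R245W or R172H tumour, the exception being R172H 2, with copies summed and with a surrogate variable (adjusted p up to 0.194), at log2 fold changes of -3.11 to -2.72 over the fits that left out a tumour. Adhfe1, a mitochondrial hydroxyacid-oxoacid transhydrogenase (chromosome 1: 9547948 to 9580673), had 0.662, 0.565 and 1.11 CPM in R245W tumours, against 2.34, 3.19 and 5.04 CPM in R172H tumours, 4.3-fold lower (-2.10 ± 0.37, adjusted p = 0.0244). Its call was lost without R245W 1, without R172H 4 and without R245W 2 (log2 fold change -1.92, adjusted p = 0.135; range over all settings 6.80e-06 to 0.135).

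Ndufs5 and Rhbdl2 are near neighbours, and another called entry lay beside them. Of the 33 other genes tested within 1 Mb of Ndufs5, 2 were called, both lower: Rhbdl2, whose start lies 75.2 kb from that of Ndufs5, and the pseudogene Gm12904 at 125 kb. Gm12904 had 0 counts in all 3 R245W tumours and 56 counts over the R172H tumours (0.148 to 0.555 CPM, edgeR adjusted p = 0.0338). That makes it at least 8.51-fold lower against a floor of 3 counts over the R245W group, which covers counting error only. Its call was lost in 8 of the 9 fits that left out an R245W or R172H tumour, the exception being R172H 4. Akirin1, which lies between Ndufs5 and Rhbdl2, had a log2 fold change of -0.37 and was not called (adjusted p = 0.497). The Notch target Heyl, 479 kb to the other side, had 54.5, 15.6 and 30.8 CPM in R245W tumours, against 62.7 to 154 CPM in R172H tumours, and did not pass (-1.60 ± 0.61, adjusted p = 0.347). The median log2 fold change of the 33 neighbours was -0.09, so the lower counts were not shared by the interval as a whole.

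**Figure D3:**
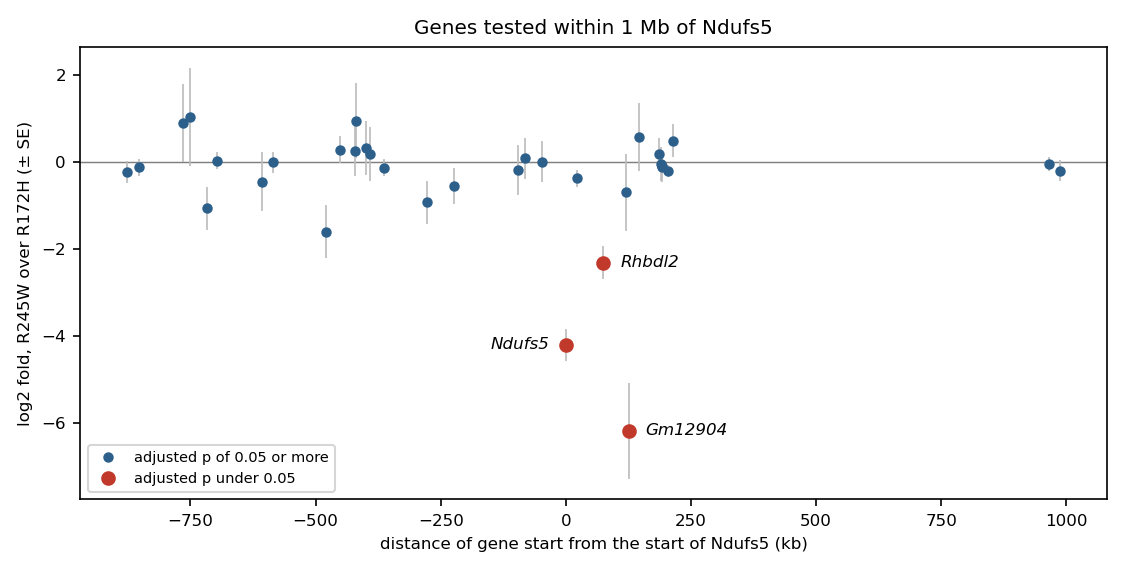
Log2 fold change of R245W over R172H tumours with its SE for each gene tested within 1 Mb of Ndufs5, against the distance of its start from that of Ndufs5 in kb, called genes marked. Ndufs5 (-4.20), Rhbdl2 (-2.31, at 75.2 kb) and Gm12904 (at 125 kb) lie below their neighbours, whose median was -0.09.

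Among long noncoding and model-number genes, Gm26510 had 0.662, 1.22 and 1.19 CPM in R245W tumours, against 3.88, 5.68 and 13.6 CPM in R172H tumours (log2 fold change -2.70 ± 0.42, adjusted p = 0.0144). G530011O06Rik on the X chromosome had 0.177, 0.518 and 0.246 CPM in R245W tumours, against 3.48, 5.70 and 10.7 CPM in R172H tumours (-4.31 ± 0.70, adjusted p = 0.0153). Their calls were lost when any 1 R245W tumour was left out (adjusted p up to 0.0856 and 0.0955). 2610507I01Rik had 0.309, 0.0941 and 0.410 CPM in R245W tumours, against 1, 2.38 and 3.88 CPM in R172H tumours (-3.05 ± 0.55, adjusted p = 0.027), and lost its call in 6 of the 9 such fits (adjusted p up to 0.135). The antisense gene BC018473 was higher, with 12.1, 8.52 and 16 CPM in R245W tumours, against 0.0446 to 0.172 CPM in R172H tumours (6.86 ± 1.24, adjusted p = 0.0287). It was lost in all 9 (adjusted p up to 0.0993), and because no strand setting is given, its reads cannot be told apart from those of the gene it overlaps. The small nuclear RNA gene Gm25813 had 2.91, 35.2 and 4.35 CPM in R245W tumours, against 0.0893 to 0.328 CPM in R172H tumours, and it lost its call without R245W 2 (adjusted p = 0.101, log2 fold change 4.29, against 6.25 ± 0.98 with it).

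Trp53 itself and its best known targets did not pass the test. Trp53 had 57.0, 76.5 and 60.8 CPM in R245W tumours, against 36.2, 44.3 and 66.0 CPM in R172H tumours, which overlapped (log2 fold change 0.40 ± 0.28, adjusted p = 0.632). An exact two-sided permutation test over the 84 splits of 9 tumours gave p = 0.131, the smallest possible being 0.0119. Since each allele differs from the normal one by a single amino acid, the level of Trp53 does not check the genotype labels. Cdkn1a, the p21 inhibitor that p53 induces to stop the cell cycle, had 61.4, 105 and 92.6 CPM in R245W tumours, against 19.0, 34.6 and 67.2 CPM in R172H tumours (1.13 ± 0.43, adjusted p = 0.347). Mdm2, the ligase that degrades p53 and is itself a target, had 48.7, 59.8 and 48.6 CPM in R245W tumours, against 49.2, 50.2 and 55.9 CPM in R172H tumours (0.02 ± 0.21, adjusted p = 0.979). Over the 25 p53-activated targets tested, 12 were above and 13 below 0, edgeR called none and DESeq2 called 1, and the median log2 fold change was -0.12 (-0.22 without R245W 2). Tnfrsf10b, a death receptor that p53 induces, was the member furthest up, with 17.0, 21.6 and 16.1 CPM in R245W tumours, against 1.68, 5.91 and 8.26 CPM in R172H tumours, and it did not pass with edgeR (1.77 ± 0.38, adjusted p = 0.0976) but did with DESeq2 and limma voom (range over all settings 0.00316 to 0.372). Pmaip1, the cell death gene Noxa, had 11.1, 9.79 and 4.47 CPM in R245W tumours, against 6.80 to 28.2 CPM in R172H tumours.

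Further genes came close to the threshold and did not pass with edgeR. All of them passed with DESeq2, and all but Bid, Gar1, Tmem221 and Enpep with limma voom. On the higher side, Phyhip had 7.20, 4.47 and 6.07 CPM in R245W tumours, against 0.0693 to 0.603 CPM in R172H tumours (log2 fold change 4.45 ± 0.89, adjusted p = 0.0578, range over all settings 4.02e-04 to 0.166). The next 3 genes lie on chromosome 6. Atp6v0a4, a subunit of the vacuolar ATPase, had 1.72, 4.38 and 3.36 CPM in R245W tumours, against 0.277 to 0.732 CPM in R172H tumours (2.73 ± 0.55, adjusted p = 0.0578, range 0.0013 to 0.286). Tead4, a DNA-binding partner of YAP, had 10.9, 17.8 and 8.77 CPM in R245W tumours, against 3.12 to 5.44 CPM in R172H tumours (1.49 ± 0.31, adjusted p = 0.0806, range 0.00185 to 0.468). Bid, which carries the death signal to mitochondria, had 49.8, 90.6 and 38.7 CPM in R245W tumours, against 13.3 to 25.1 CPM in R172H tumours (1.77 ± 0.38, adjusted p = 0.0874, range 0.00371 to 0.468). Gar1, a core protein of the H/ACA particles that modify ribosomal RNA, had 8.92, 18 and 16.1 CPM in R245W tumours, against 6.74 to 8.01 CPM in R172H tumours (1 ± 0.21, adjusted p = 0.094, range 0.00131 to 0.468). The groups did not overlap for any of these 5 genes.

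On the lower side, Hic1, a transcriptional repressor and growth suppressor, had 5.92, 4.71 and 2.83 CPM in R245W tumours, against 9.21, 18.1 and 37.7 CPM in R172H tumours (log2 fold change -2.16 ± 0.42, adjusted p = 0.05001, just above the threshold, range over all settings 3.94e-05 to 0.203). Pcsk5, a proprotein convertase, had 6.71, 1.84 and 9.18 CPM in R245W tumours, against 21.2, 30.3 and 38.6 CPM in R172H tumours (-2.32 ± 0.47, adjusted p = 0.0581, range 5.17e-05 to 0.181). Tnfrsf9, the T cell costimulatory receptor 4-1BB, had 1.46, 3.39 and 1.56 CPM in R245W tumours, against 6.37, 14.3 and 34.1 CPM in R172H tumours (-3.03 ± 0.63, adjusted p = 0.0688, range 2.06e-05 to 0.229). Enpep, a membrane aminopeptidase that cleaves angiotensin, had 1.72, 0.659 and 3.32 CPM in R245W tumours, against 7.32, 16.2 and 47.6 CPM in R172H tumours (-3.36 ± 0.74, adjusted p = 0.113, range 4.11e-05 to 0.427). These values too did not overlap. Tmem221 (adjusted p = 0.0545), the noncoding Junos, antisense to Jun (0.0645), and Mcmdc2 (0.113) made up the rest of the lower side. Rpl34, a ribosomal protein gene, had 11.2, 34.8 and 19.6 CPM in R245W tumours, against 63.2, 89.8 and 188 CPM in R172H tumours (-2.21 ± 0.44, adjusted p = 0.0557), and with its copies summed the log2 fold change was -0.88 (adjusted p = 0.425; range over all settings 4.11e-05 to 0.425).

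Of 44 gene lists for pathways and cell types, which held 793 tested genes, Ndufs5 was the only member called by edgeR, and the smallest adjusted p of the others was 0.0557 (Rpl34). DESeq2 called 6 members higher and 19 lower in R245W tumours, and limma voom 2 higher and 3 lower. Of the members, 47.3% were above 0 against 49.7% of all genes, and 44 (5.55%) did not overlap between the groups against 5.6% of all genes. The lists are therefore described by counts and medians of the log2 fold change, beside a median of 0.00 over all genes tested. Other than Ndufs5, no list member named from here on passed with edgeR. Of those named, DESeq2 also called Myc, Ncl, Rrp1b, Foxo1, Sfrp4, Egfr, Lum, Postn, Aspn, Vwf, Shox2, Id4, Lgr5, Hoxa13 and Hoxb13.

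Among growth-related lists, the MYC and ribosome biogenesis genes lay furthest on the R245W side by median. Ribosome biogenesis builds ribosomal RNA and its assembly factors in the nucleolus, and MYC drives it. All 21 members tested were above 0, and the median was 0.67. Of them 9 (42.9%) were higher without overlap, against 2.86% of all genes tested. The summed level was 2095 to 3927 CPM in R245W tumours, against 1431 to 1629 CPM in R172H tumours. Myc had 133, 391 and 222 CPM in R245W tumours, against 67.9, 76.7 and 117 CPM in R172H tumours (log2 fold change 1.56 ± 0.40, adjusted p = 0.167, range over all settings 0.0263 to 0.648). Ncl, the nucleolar protein nucleolin, had 308, 387 and 344 CPM in R245W tumours, against 163, 184 and 220 CPM in R172H tumours (0.90 ± 0.21, adjusted p = 0.137, range 0.0100 to 0.468). Rrp1b, a processing factor of the large subunit, had 48.9, 139 and 70.8 CPM in R245W tumours, against 26.5 to 41.9 CPM in R172H tumours, and Nop2, a ribosomal RNA methyltransferase, had 96.3, 164 and 124 CPM in R245W tumours, against 63.2 to 82.1 CPM in R172H tumours. Without R245W 2, the highest tumour for each of these 4 genes, the list's median was 0.33 and 17 of 21 members were above 0.

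Other growth lists leaned on the same tumour. Of 34 cytosolic ribosomal protein genes 31 were above 0 (median 0.49), and the median without R245W 2 was 0.04. Of 24 DNA replication genes 23 were above 0 (median 0.40). Without R245W 2 the median was -0.07, with 7 above 0. Mcm7, a subunit of the replicative helicase, had 33.1, 128 and 77.1 CPM in R245W tumours, against 40.9 to 61.6 CPM in R172H tumours, and Rpl7, a large-subunit protein, had 441, 1091 and 468 CPM in R245W tumours, against 298 to 451 CPM in R172H tumours. The 23 mitosis genes had a median of 0.01, with 12 above 0, and so did not lie to either side. Without R245W 2 their median was -0.34, with 1 above 0. The 28 oxidative phosphorylation genes had a median of 0.05, with 16 above 0 (-0.19, with 6 above 0, without R245W 2), and Ndufs5 was the only member called by edgeR or DESeq2. The 13 genes encoded by mitochondria had a median of 0.00.

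Stromal and signalling lists had their values mostly on the R172H side. Receptor tyrosine kinases had 17 of 22 members below 0 (median -0.38) and summed levels of 1940 to 2133 CPM in R245W tumours, against 2482 to 3142 CPM in R172H tumours. Pdgfrb, the receptor for platelet-derived growth factor on stromal and bone tumour cells, had 313, 274 and 237 CPM in R245W tumours, against 346 to 580 CPM in R172H tumours, and Egfr had 40.5, 14.3 and 21.5 CPM in R245W tumours, against 23.9 to 181 CPM in R172H tumours. Of 21 fibroblast and small proteoglycan genes 16 were below 0 (median -1.27, and -1.01 without R245W 2). Lum, the collagen-binding proteoglycan lumican, had 33.5, 5.18 and 20.7 CPM in R245W tumours, against 16.5, 340 and 1307 CPM in R172H tumours. Postn, the matrix protein periostin, had 326, 37.7 and 147 CPM in R245W tumours, against 110, 3057 and 4473 CPM in R172H tumours. Aspn, which binds collagen, had 22.3, 15.4 and 16.8 CPM in R245W tumours, against 26.7 to 139 CPM in R172H tumours, and did not overlap. The summed list ran from 6494 to 14144 CPM in R245W and from 7242 to 27142 CPM in R172H tumours and did overlap.

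Wnt signalling had 19 of 26 members below 0 (median -0.39). Sfrp4, a secreted Wnt antagonist, had 10.2, 1.04 and 11.3 CPM in R245W tumours, against 32.0, 166 and 522 CPM in R172H tumours (log2 fold change -4.97 ± 1.29, adjusted p = 0.171, range over all settings 3.50e-05 to 0.525). Lgr5, a receptor for R-spondins, had 0.044, 0 and 0.328 CPM in R245W tumours, against 0.312 to 9.59 CPM in R172H tumours. Among Notch genes, 10 of 13 were below 0 (median -0.26, and -0.12 without R245W 2), and Notch3, a receptor of mural cells, had 292, 163 and 198 CPM in R245W tumours, against 76.6 to 148 CPM in R172H tumours. TGF-beta and BMP genes had 15 of 22 below 0 (median -0.32). In the insulin and Foxo list (median 0.00), Foxo1, the transcription factor that insulin signalling keeps out of the nucleus, had 93.3, 150 and 83.7 CPM in R245W tumours, against 24.2, 43.1 and 64.4 CPM in R172H tumours (1.37 ± 0.33, adjusted p = 0.140, range over all settings 0.0170 to 0.565). Igfbp4, which binds insulin-like growth factors, had 221, 193 and 104 CPM in R245W tumours, against 227 to 565 CPM in R172H tumours.

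Inflammatory and immune lists were mostly on the R172H side too. All 23 interferon response genes were below 0 (median -0.90), and the groups overlapped for each of them. Tumour R172H 3 had the highest summed level, 2882 CPM, while R245W tumours had 341 to 646 CPM and the R172H median was 435 CPM. By tumour, the list's median deviation from the R172H mean was -0.02, -0.78 and -0.20 in R245W tumours. It was 0.83, -0.55, 2.49, -0.81, -0.97 and -0.91 in R172H 1 to R172H 6. Only R172H 1 and R172H 3 thus lay above every R245W tumour, and the other R172H tumours lay below R245W 1 and R245W 3. Of 23 cytokine and NF-kB genes 17 were below 0 (median -0.55), with summed levels of 629 to 683 CPM in R245W tumours, against 691 to 1163 CPM in R172H tumours. Icam1, the adhesion molecule that NF-kB induces, had 15, 16.4 and 16 CPM in R245W tumours, against 22.2 to 41.0 CPM in R172H tumours, and Ccl5, a chemokine for T cells, had 0.353, 0.565 and 1.68 CPM in R245W tumours, against 1.77 to 7.25 CPM in R172H tumours. T and NK cell genes had 14 of 18 below 0 (median -0.68, and -0.39 without R245W 2, the lowest tumour) and 16.6 to 59.4 CPM summed in R245W tumours, against 41.3 to 101 CPM in R172H tumours. Cd8b1, a chain of the CD8 coreceptor, had 0.221, 0.0941 and 0.656 CPM in R245W tumours, against 0.947 to 1.94 CPM in R172H tumours. Immediate early genes, which respond within minutes to growth signals and to handling of tissue, had 14 of 17 below 0 (median -1.03), summed 284 to 327 CPM in R245W tumours, against 342 to 1159 CPM in R172H tumours, and had a median of -0.30 without R172H 6. Their part in the other differences was not tested.

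Markers of blood and other tissues varied with the tumours. All 15 neutrophil and granulocyte genes were above 0 (median 2.59), with summed levels of 22.4 to 269 CPM in R245W tumours, against 13.2 to 65.0 CPM in R172H tumours, which overlapped. S100a9, a calcium-binding protein of neutrophils, had 14.6, 1.13 and 30.8 CPM in R245W tumours, against 0.179 to 7.36 CPM in R172H tumours. Of 15 erythroid genes 14 were above 0 (median 1.504), and Slc4a1, the anion exchanger of red cells, had 7.24, 5.46 and 16.7 CPM in R245W tumours, against 0.037 to 4.69 CPM in R172H tumours. Skeletal muscle genes had 15 of 20 below 0 (median -0.79, and -0.30 without R245W 2), with 136 to 1602 CPM summed in R245W tumours, against 469 to 3944 CPM in R172H tumours. Osteoclast genes had 13 of 14 below 0 (median -0.58), and the R245W sums of 809 to 9983 CPM spanned a wider range than the 8352 to 12358 CPM of the R172H tumours, with R245W 2 the lowest. The median without it was -0.16. Endothelial genes had 14 of 16 below 0 (median -0.29), and Vwf, the clotting factor carrier of blood vessel walls, had 12.3, 11.9 and 14.6 CPM in R245W tumours, against 16.2 to 53.2 CPM in R172H tumours. The part of these cell types in the called genes was not tested.

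Bone and position lists divided within themselves. Osteoblast and osteocyte genes had 8 above and 11 below 0 (median -0.10, and 0.09 without R245W 2), and their summed levels of 35918 to 116085 CPM in R245W and 32747 to 134024 CPM in R172H tumours overlapped throughout. Chondrocyte genes had a median of -0.82, with 11 of 17 below 0, while Ihh, the hedgehog ligand of growth plate cartilage, had 1.46, 8.19 and 2.87 CPM in R245W tumours, against 0.173 to 0.904 CPM in R172H tumours. Among posterior Hox genes, which mark position along the limb and tail, Hoxb13 was at 0 in all 6 R172H tumours and had 0.044, 12.8 and 0.492 CPM in R245W tumours. Hoxa13, a gene of the most distal limb, had 0.044, 0.0941 and 0.041 CPM in R245W tumours, against 0, 12.1 and 37.3 CPM in R172H tumours as lowest, median and highest. Shox2, a factor of the proximal limb, had 27, 45 and 34.9 CPM in R245W tumours, against 51.0, 129 and 197 CPM in R172H tumours, and Alx4, a limb and skull factor, had 126, 118 and 75.5 CPM in R245W tumours, against 31.2 to 84.2 CPM in R172H tumours. Tumour site is not labelled, so position and genotype cannot be told apart in these genes.

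Genes that have been reported as targets of mutant p53 in other work divided as well, with 12 of 22 above 0 and a median of 0.07. Besides Myc and Egfr, Id4, an inhibitor of basic helix-loop-helix factors, had 0.177, 0.141 and 0.164 CPM in R245W tumours, against 0.744 to 5.78 CPM in R172H tumours, and Abcb1a, a drug efflux pump, had 3.97, 4.52 and 3.94 CPM in R245W tumours, against 4.59 to 17.1 CPM in R172H tumours. Cholesterol synthesis genes had 17 of 22 above 0 (median 0.18), proteasome genes 18 of 25 (0.07), hypoxia and glycolysis genes 13 of 22 (0.099) and homologous recombination genes 12 of 17 (0.05). Without R245W 2 these 4 lists turned to 6 of 22 above 0 (median -0.05), 9 of 25 (-0.13), 4 of 22 (-0.27) and 6 of 17 (-0.10), in the same order, and the mutant p53 target list to 8 of 22 (-0.19). B and plasma cell genes had 10 of 12 above 0 (median 0.29, and 0.51 without R245W 2). Below 0 lay 15 of 17 antigen presentation genes (median -0.40, and -0.17 without R245W 2), 16 of 22 matrix proteases (-0.29), 15 of 18 mesenchymal transition genes and cadherins (-0.29), 10 of 13 pericyte and smooth muscle genes (-0.65), 11 of 17 macrophage genes (-0.19, and -0.37 without R245W 2) and 12 of 19 genes of the unfolded protein response (-0.08). A list of mostly non-polyadenylated RNA, which also holds the protein-coding gene Lars2, can reflect how a library was prepared. Of its 16 genes tested 13 were above 0 (median 0.33, and -0.36 with 5 above 0 without R245W 2). Its summed levels were 23503 to 77307 CPM in R245W tumours, against 20017 to 54162 CPM in R172H tumours. The part of this list in the other differences was not tested.

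**Figure D4:**
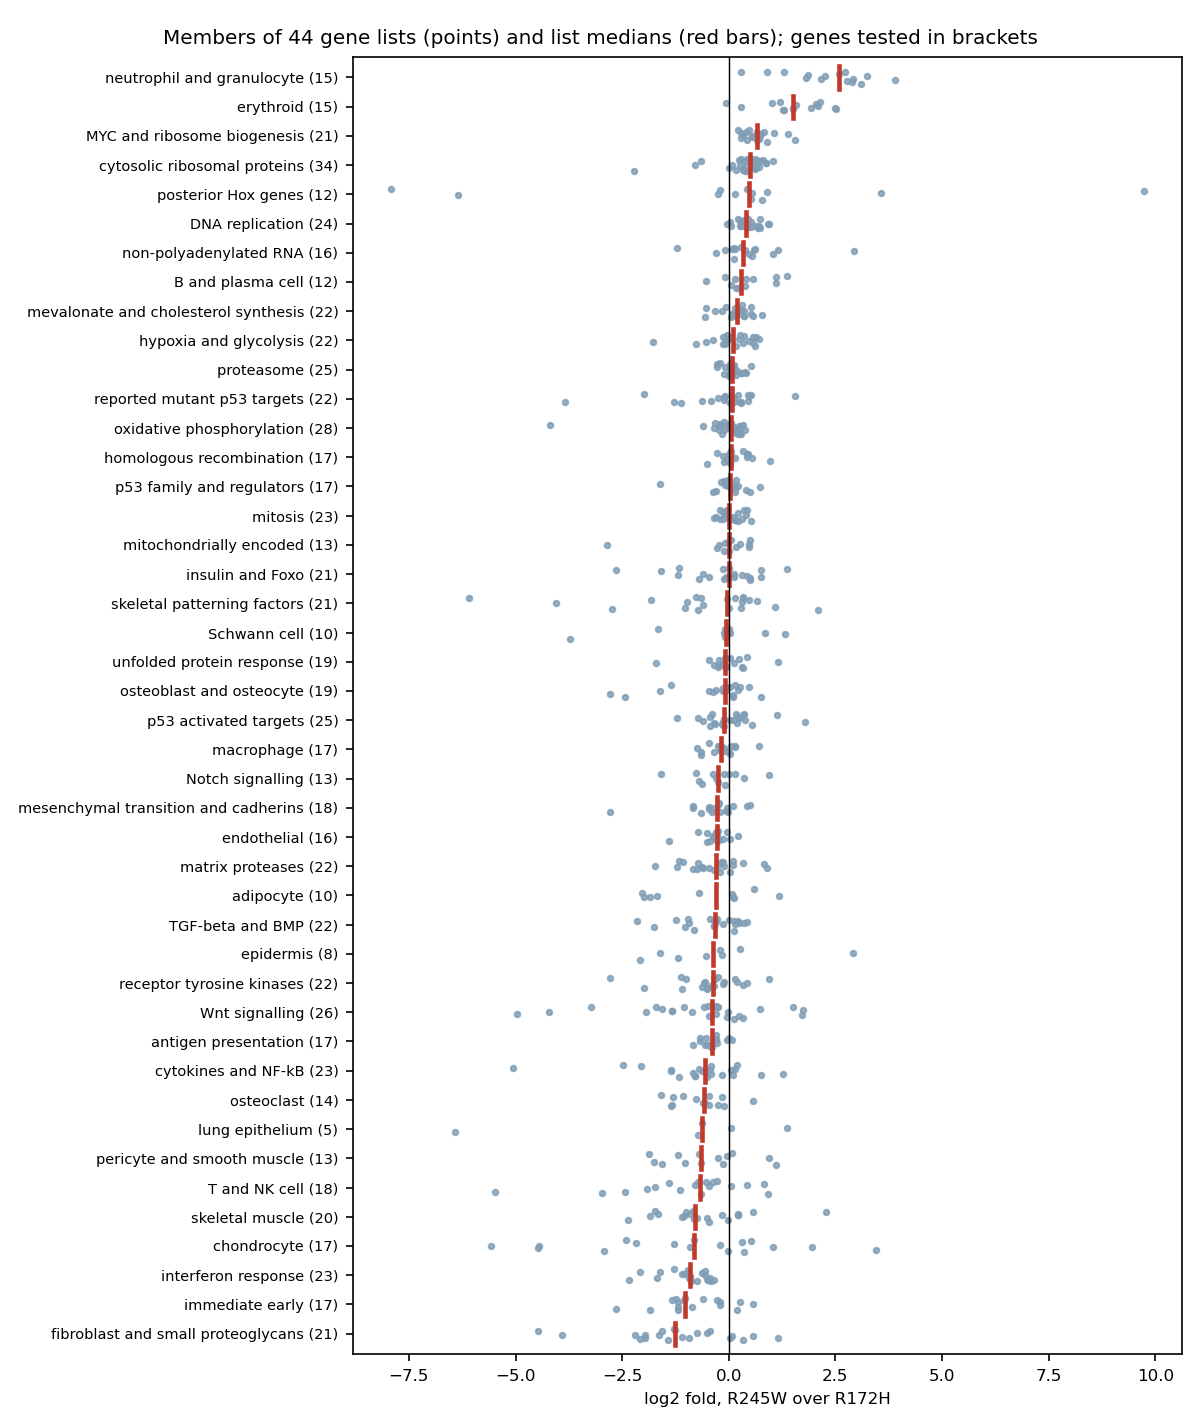
Median log2 fold change of R245W over R172H tumours for each of 44 gene lists, as red bars, each member being a point, with the number of members tested in brackets. Neutrophil (2.59), erythroid (1.504) and MYC and ribosome biogenesis genes (0.67) lie furthest up, fibroblast (-1.27), immediate early (-1.03) and interferon response genes (-0.90) furthest down, and edgeR called 1 gene of all lists.

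Whole chromosomes showed small shifts. Over 11247 protein-coding genes, the median log2 CPM of a chromosome relative to the R172H mean did not overlap between the groups for chromosomes 4, 6 and 8. On chromosome 6 it was 0.13, 0.22 and 0.22 in the R245W tumours, against -0.05 to 0.05 in R172H tumours, and all 4 called genes of 1223 tested there were higher, each of them a pseudogene. On chromosome 4 it was -0.06, -0.27 and -0.06 in R245W tumours, against -0.05 to 0.03 in R172H tumours, with 1 gene called higher and 3 lower of 1180 tested. On chromosome 8 it was 0.04, 0.09 and 0.10 in R245W tumours, against -0.07 to 0.04 in R172H tumours. On the other autosomes and X the groups overlapped. DNA copy number was not measured, and its part in the differences on these chromosomes was not tested.

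**Figure D5:**
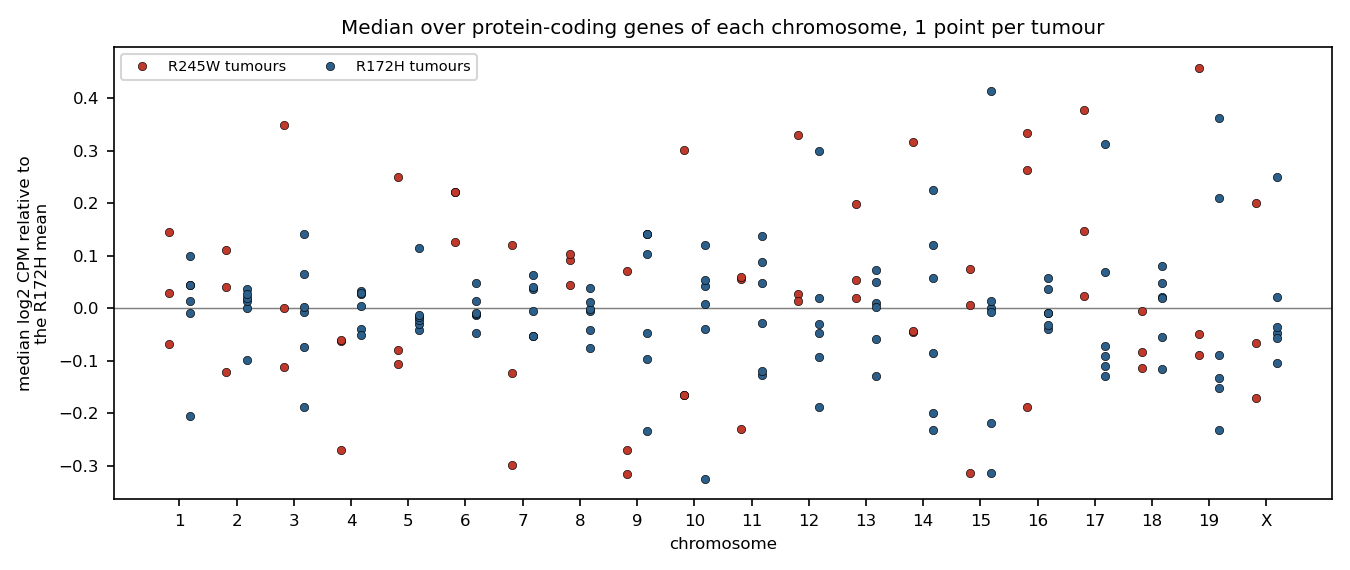
Median log2 CPM of the protein-coding genes of each chromosome in each R245W and R172H tumour, relative to the mean of the R172H tumours. The 3 R245W tumours lie above all R172H tumours on chromosome 6 (0.13 to 0.22 against -0.05 to 0.05), while on most other chromosomes the groups overlap.

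For some of the called genes the other genotypes showed which group stood apart. In the 9 R270H and p53+/- tumours, between 0 and 6 of the 32 called genes were in the R245W range or beyond it, between 13 and 24 were within the R172H range, and between 7 and 13 lay past the R172H range but short of the R245W tumours. For Gm6969, Gm18862, Rpl15-ps2, Rhbdl2 and 2610507I01Rik none of the 9 lay past the R172H range, so for these genes the R245W tumours stood apart from all others. Past the R172H range lay 8 of the 9 for Glo1, Atp6v0c-ps2 and Gm25813, and 7 for Rpgrip1l and Gm14292. Some were past it by very little. For Atp6v0c-ps2, R270H 2, R270H 3, R270H 5 and p53+/- 3 had 0.308 to 0.514 CPM, against at most 0.296 CPM in R172H tumours. For Gm14292, R270H 2, R270H 3 and R270H 4 had 0.169 to 0.264 CPM, against at most 0.104 CPM in R172H tumours. Such values rest on few counts and do not place these tumours with the R245W group. For Ndufs5 the R270H tumours had 9.96 to 15.2 CPM and p53+/- tumours 7.57 to 22.4 CPM, which lay above the R245W tumours and, in 6 of 9, below the R172H range. The lowest of these, p53+/- 4, had 12.1 CPM at BC002163, 61.6% of the pair, where no other R270H or p53+/- tumour lay above the R172H range. Rpl3-ps1 reached at most 2.07 CPM in the 9 other tumours. For Gm9825 and Atp6v0c-ps2, by contrast, some of the other tumours had high copies: Gm9825 had 16.4, 13.5, 0.373 and 14.8 CPM in p53+/- tumours and Atp6v0c-ps2 had 21.9, 9.40, 0.514 and 11.9 CPM, with 9.06 and 14.7 CPM in R270H 1.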

How the data were processed

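RNA from 18 primary osteosarcomas and 2 libraries of a cell line was sequenced. Per the labels' protocols, frozen tumours were crushed into Trizol, total RNA was purified on columns, and Illumina libraries were made. The authors deposited raw counts per gene; per the submitters' processing notes and the design text, reads were checked with FastQC and aligned to GRCm38 with STAR 2.6.0b, and DESeq2 was used for their own comparisons. The counting program, its strand setting and its handling of reads that match several places are not given in the sources used here, and they bear on every gene with a near-identical copy.

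The deposited counts of all 18 tumours were fitted with edgeR 4.0.16 in R 4.3.3: genes were kept by filterByExpr (minimum count 10, minimum total 15), libraries were scaled by TMM, and a quasi-likelihood model with 1 mean per genotype left 14 residual degrees of freedom. p-values were adjusted by Benjamini-Hochberg over 20616 genes. CPM are counts scaled to a common library size with TMM factors, SE is the log2 fold change over the square root of F, and log2 values had 2 counts added as prior. Trp53 was also tested by exact permutation. The edgeR, DESeq2 and limma voom fits were tested on simulated data.

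The genes named were the called genes with at least 1 CPM in either group and no overlap, at most 12 a side, filled up by lowest p; model-number genes and pseudogenes were named apart, the 3 of lowest p a side; of each list the 4 members of lowest p could be named. Further called copies, Hmga1, the neighbours of Ndufs5, and other list members (such as Alpl and Pmaip1) were added after their values were seen. Genes and lists were chosen with earlier results of these data known. Copies were matched by BLAST among GENCODE M21 transcripts (at least 95% identity over at least 80% of the length), a step chosen after seeing the data, and sequences shown come from those transcripts. Gene positions are those of GENCODE M21 on GRCm38.

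Alternatives were DESeq2 1.42.0, limma 3.58.1 voom with quality weights, DESeq2 size factors in edgeR, no filter and a stricter filter, only the 9 tumours, robust dispersion, a muscle score, a surrogate variable from sva 3.50.0, each tumour left out in turn, and near-identical copies summed.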

Additional observations from a re-analysis of the deposited data

Results flagged for a closer look

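In cell line 14, a line made from a tumour of this study whose labels give a p53 R245 mutant without a normal allele, 30 of the 32 called genes lay outside the R172H tumours' range on the R245W side in the control library, which no comparison above used; its siRNA library had 30 as well. Of these, 20 in the siRNA library and 18 in the control reached the R245W tumours' range. The line lay past the R172H range on the side of the gene's own fold change for 43.7% of all 20616 genes in the siRNA library and 43.4% in the control, and for 58% (siRNA) and 58.6% (control) of the 1154 genes without overlap. Rpl3-ps1 had 154 CPM in the siRNA library and 133 CPM in the control, Gm6969 had 61 CPM in the siRNA library and 53.4 CPM in the control, BC002163 had 41.9 CPM in the siRNA library and 33 CPM in the control, and Ndufs5 had 2.83 CPM in the siRNA library and 2.86 CPM in the control. These are 2 libraries of 1 line, so they are not replicates of the R245W tumours.

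In 139 sets of values over the 6 R172H tumours, each tested for a tumour far from the others (gap over range above 0.625), 4 were flagged, and chance flags about 1 in 20. Sycp1 was at 0 in 5 R172H tumours and at 0.0372 CPM in R172H 3. Gm6969 was lowest in R172H 5, at 0.0 CPM. The p53 family and regulators list had its highest median deviation from the R172H mean in R172H 6, 0.133 on the log2 scale. The immediate early list was highest in R172H 6 too, 1.19 on the log2 scale above the R172H mean, and its median log2 fold change without that tumour was -0.30, against -1.03 with it.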

How the results depend on the processing

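The number of genes called, 32, was 347 with DESeq2 (125 higher and 222 lower in R245W tumours, 30 of the 32 among them), 119 with limma voom (30 of the 32 among them) and 16 with near-identical copies summed (15 of the 32 among them), the last added after seeing the data. Leaving out 1 tumour at a time gave 14 to 39 genes. Calls kept in all 9 fits without an R245W or R172H tumour, and in all 18, numbered 7 of 32: Gm8420, Gm10020, Gm6969, Rpl3-ps1, Gm13443, Rpl15-ps2 and Ndufs5. Of the 32, Ndufs5 alone changed sign under any setting tried, with copies summed (0.046 on the log2 scale). Mdm2, never called, had a log2 fold change of -0.058 with limma voom and of -0.086 to 0.073 over the fits without an R245W tumour, the lowest being without R245W 2. Trp53 kept a positive log2 fold change and passed under none of the settings (0.26 to 0.50 over the fits that left out a tumour). Of 1276 recomputed list medians 1250 moved by less than 1 SD between tumours; of the 26 that moved more, 20 did so when a tumour was left out, 8 of them without R245W 2. No paired analysis was possible because the labels number no replicates, and they name no shared animal, litter or batch. The cause of these changes was not tested. With 3 R245W tumours and totals of 21964474 to 23956389 counts, genes under about 1 CPM rest on few counts.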
